A study of Mus musculus with 6 samples.

Results

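Messenger RNA levels in mouse embryonic stem (ES) cells with and without 4-hydroxytamoxifen (OHT), a drug given here to deplete the Polycomb protein Rybp, were compared within each of 3 cell clones. All 6 arrays of the series belong to this comparison: each clone gave 1 array with OHT (OHT+) and 1 array without it (OHT-), and the arrays were chosen by their labels, with no use of measured values. The cells share a 129/B6 hybrid background. Clone 3031 carries wild-type Yaf2 (Yaf2wt OHT+ and Yaf2wt OHT-, 1 array each), and clones 3086 and 3087 are Yaf2 knockdowns, which the labels also call mutant (Yaf2kd OHT+ and Yaf2kd OHT-, 2 arrays each). The OHT+ cultures received OHT at 0.8 µM over 24 hours, and the OHT- cultures are labelled as having intact Rybp. The sources used here do not give the time from treatment to harvest, the allele that OHT acts on or whether a culture grew on feeder fibroblasts or on gelatin. No array held cells that received OHT and kept Rybp, so the drug itself and the loss of Rybp cannot be told apart. Each line is a single clone, so clone and Yaf2 status cannot be told apart either, and a p-value covers no more than the spread among these 3 clones.

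Rybp and its close relative Yaf2 are alternative subunits of variant Polycomb repressive complex 1 (PRC1), an assembly around the ubiquitin ligases Ring1 and Rnf2 that marks chromatin by attaching ubiquitin to a histone. The variant PRC1.6 contains Pcgf6, Mga, Max, L3mbtl2 and E2f6 and is known in ES cells for sitting at the promoters of germ cell genes and keeping them silent. Mga and Max bind the E-box sequence as a pair, Mga also has a T-box domain, and E2f6 binds E2F sites. Germ cell genes act in meiosis, in the small-RNA defence against transposons (the piRNA pathway) and in egg and sperm formation, and in most other cells they are shut off. The comparison asks which genes change when cells are treated to deplete Rybp.

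The values were the deposited probe set intensities, taken as log2. The brightest probe set stood for a gene, and genes with a mean of at least 106 (the antilog of the mean log2 value over the 6 arrays) entered the test, which left 10922 of 18193 genes. The genes nearest that limit were Ackr4 with a mean of 106.1 inside it and Hs3st1 with a mean of 106.0 outside it. All 6 arrays held the same sorted values. RNA quality, read as the 3'/5' signal ratio of the Gapdh controls (0.801 to 0.832) and of the Actb controls (1.31 to 1.44), overlapped between OHT+ and OHT- arrays. The 10 ES cell markers looked at (Pou5f1, Nanog, Sox2, Zfp42, Esrrb, Klf4, Dppa5a, Tdgf1, Fgf4 and Utf1) were all above the limit in both conditions, and none of them passed the test. Nanog, for example, was at 7439.9 ± 774 without OHT and 9982 ± 1171 with it (SD, n = 3). Below, arrays are given in the order of clones 3031, 3086 and 3087, a difference is the log2 intensity with OHT minus that without it, and its error is the standard error (SE) of the limma fit with the clone as a block. A gene is called when its Benjamini-Hochberg adjusted p over the 10922 genes is under 0.05.

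The targeted genes came first. The annotation assigns both Rybp probe sets jointly to the gene and its pseudogene Rybp-ps, so neither is in the gene table. The first, 1421111_at, read 1997, 1785 and 2262 without OHT and 102, 101 and 53.9 with it, a difference of -4.61 ± 0.34 (log2 ± SE in the fit of all probe sets). The other, 1428219_at, read 180, 211 and 336 without OHT and 3247, 3443 and 2796 with it, a difference of 3.75 ± 0.30. Their arrays did not overlap, and the direction of each was the same in all 3 clones, so both separate the OHT+ from the OHT- arrays as labelled, in opposite directions. Among all 45037 probe sets other than controls both had an adjusted p of 0.608 (5.35e-05 with a variance trend on intensity), and among the 21780 probe sets at or above the limit it was 0.0126 and 0.0150. With OHT 1421111_at was below that limit, so it entered the fit of 21780 only through the OHT- arrays and its 0.0126 is no support. The sources used here do not say where in the gene each probe set lies, so they do not measure how much intact Rybp RNA was left. Yaf2, by its brightest probe set, read 816, 293 and 238 without OHT and 769, 297 and 278 with it, a difference of 0.054 ± 0.11. The low values are those of the knockdown clones in both conditions, and OHT gave Yaf2 no difference that passed.

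**Figure D1:**
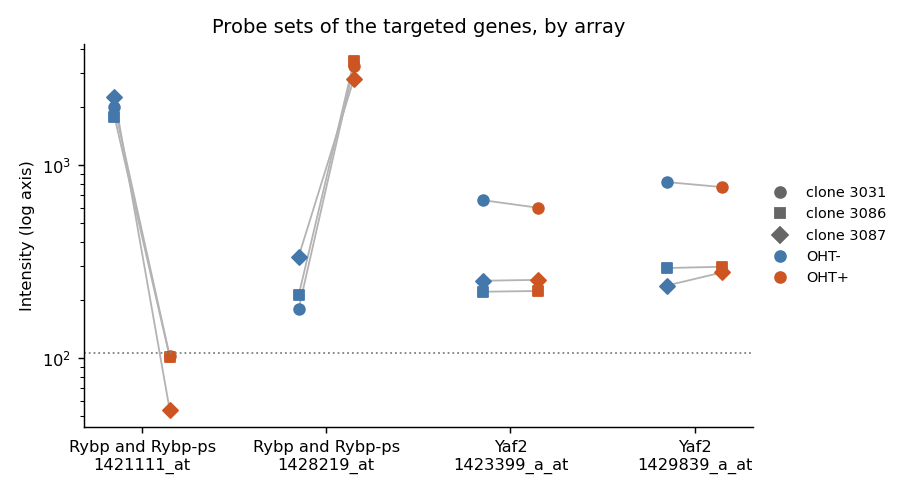
Intensity on a log axis of the probe sets of Rybp (annotated to Rybp and Rybp-ps) and of Yaf2 on each of the 6 arrays; lines join the OHT- (blue) and OHT+ (orange) array of a clone, symbols give the clone, and the dotted line is the limit of 106. The Rybp probe set 1421111_at is at 1785 or more without OHT and at 102 or less with it, 1428219_at runs the other way, and the Yaf2 probe sets split by clone and not by OHT.

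Over the 10922 genes, limma called 64, which is 0.586% of those tested. Of these, 54 (0.494%) were higher and 10 (0.0916%) lower with OHT. A gene can enter the fit through the condition where it is high. Here a gene is dim in a condition where the arithmetic mean of its arrays is below the limit. Of those called higher 13 were dim without OHT, and of those called lower 2 were dim with it. That leaves 41 higher and 8 lower that were dim in neither. By the mean log2 value Col13a1, counted among the 41, was also below the limit without OHT. A gene that was dim in either condition had to differ to be tested, so its adjusted p is no support, here and below. All 64 moved the same way in all 3 clones, and in 62 the OHT+ and OHT- arrays did not overlap; over all genes in the fit every OHT+ array lay above every OHT- array in 8.21% and below in 8.23%. Of the genes called higher, 42 rose at least 2-fold, and of those called lower, 3 fell at least 2-fold. The median difference was 1.30 for the genes called higher and -0.87 for those called lower, beside -0.0082 for all genes in the fit, whose median absolute difference was 0.13. With no limit on intensity limma called 0 of 18193 genes (its smallest adjusted p was 0.446), although 1563 genes had p under 0.05 before adjustment. Without clone 3086 it called 27 in place of 64 (25 higher and 2 lower), and with Yaf2 status in place of the clone as a block 38 (36 higher and 2 lower). With 50 added to every intensity it called 111 higher and 43 lower, and with a variance trend on intensity 202 higher and 148 lower, so the share of genes called lower also varied. The calls therefore depend on leaving out dim genes and on how the spread is modelled, and a gene that is not called is not shown to be unchanged.

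**Figure D2:**
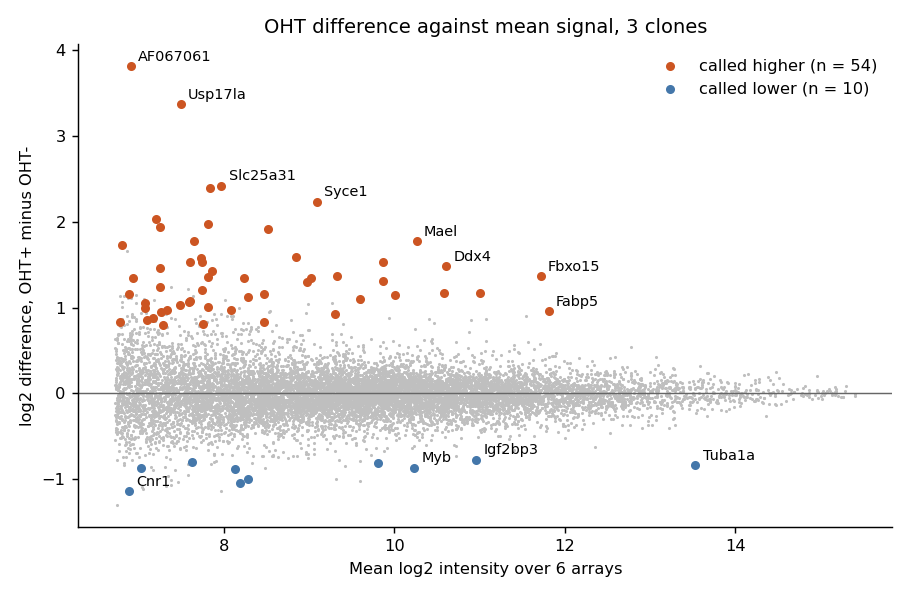
Difference (log2 intensity, OHT+ minus OHT-) against the mean log2 intensity over 6 arrays for the 10922 genes in the fit; grey points are genes not called, orange the 54 called higher and blue the 10 called lower. The largest differences, AF067061 (3.82) and Usp17la (3.37), sit among the dimmer genes, and Fbxo15, Fabp5 and Tuba1a are called at high signal.

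Among the gene lists, germ cell genes made up the largest group of the genes that rose. The 3 lists written for this comparison cover meiosis and the synaptonemal complex, the piRNA pathway and germ granule, and germ cell transcription with testis isoforms. Together they had 45 genes in the fit, of which 16 rose (10 without clone 3086) and 0 fell, against 0.494% called higher and 0.0916% called lower over all genes. They were written with earlier results of these data known, so their count is a description of these lists and not independent evidence of a direction. Of the 16, Tex11, Sycp2 and Taf9b were dim without OHT and the others in neither condition. Tex11, Sycp2 and Taf9b therefore entered the fit only through the OHT+ arrays, and their adjusted p is no support.

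Of the meiosis list, 19 genes were in the fit, 14 higher and 5 lower, with a median difference of 0.42, and 4 rose. Syce1, a protein of the central element that holds paired chromosomes together, read 268, 248 and 238 without OHT and 1079, 1198 and 1272 with it. The OHT+ arrays lay close together and far above the OHT- arrays, and the difference was 2.23 ± 0.12 (adjusted p 0.00551). Tex11, an X-linked gene of meiotic recombination, read 117, 112 and 76.3 without OHT and 433, 586 and 569.9 with it. Its untreated arrays lie at or near the limit, so the size of its difference, 2.39 ± 0.19 (adjusted p 0.00898), is uncertain. Sycp1, which forms the transverse filaments between the chromosome axes, read 169, 99.2 and 169 without OHT and 456, 230.1 and 448 with it, a difference of 1.35 ± 0.11 (adjusted p 0.00898). Clone 3086 was the lowest of the 3 in both conditions, and its own difference was close to that of the others. Sycp2, a protein of the axes themselves, differed by 1.46 ± 0.15 (adjusted p 0.0208) and was dim without OHT, at 90.9, 79.6 and 108.

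Members of the same list that did not pass span the rest of the range. Stra8, the retinoic-acid-induced gene at the entry into meiosis, differed by 1.07 ± 0.16 (adjusted p 0.0582) and the synaptonemal gene Syce3 by 0.90 ± 0.13 (adjusted p 0.0554). Both were higher in all 3 clones. The recombinase gene Dmc1 (-0.0085 ± 0.11), the meiotic cohesin genes Rec8 (0.0021 ± 0.11) and Stag3 (-0.018 ± 0.14), and Syce2 (-0.057 ± 0.11), a partner of Syce1 in the central element, lay near 0. Terb1 was the lowest of the 19 members in the fit, at -0.49 ± 0.16 (adjusted p 0.239), and was lower in all 3 clones. A further 11 measured members were below the limit and were not tested.

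The piRNA list had 14 genes in the fit, 11 higher and 3 lower, with a median difference of 0.74, and 6 rose. Mael, needed to silence transposons in the germ line, read 645, 603 and 755 without OHT and 1881, 2275 and 2726 with it, a difference of 1.77 ± 0.12 (adjusted p 0.00580). Ddx4, the RNA helicase also called Vasa, read 847, 940.5 and 1025 without OHT and 2537, 2892 and 2423 with it, a difference of 1.48 ± 0.12 (adjusted p 0.00898). Both were readily measured without OHT, so their changes started from a signal well above the limit in untreated cells. Dazl, an RNA-binding protein of germ cells, read 257, 285 and 256 without OHT and 865, 708 and 831 with it and differed by 1.59 ± 0.13 (adjusted p 0.00898); another Dazl probe set gave 2.13. Its treated arrays all lay above its untreated ones, and those of a condition differed little. Mov10l1, the helicase that starts piRNA production, differed by 1.53 ± 0.14 (adjusted p 0.0120), and Stk31, a Tudor-domain gene of germ cells, by 1.34 ± 0.15 (adjusted p 0.0250).

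Piwil2, a Piwi protein that carries piRNAs, was the most uneven of these genes. It read 507, 346 and 371 without OHT and 890.3, 1112 and 1120.4 with it, a difference of 1.36 ± 0.19 (adjusted p 0.0470), and the difference within clone 3031 was 0.81 against 1.68 and 1.59 in the Yaf2 knockdown clones. Clone 3031 had the highest untreated and the lowest treated array. Of the 8 members in the fit that did not pass, Tex19.1 (0.82 ± 0.13, adjusted p 0.0626) had the lowest p, and the Tudor genes Tdrd5 (-0.066 ± 0.16), Tdrd7 (0.070 ± 0.16) and Tdrd12 (0.12 ± 0.12) lay near 0.

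The third list, germ cell transcription and testis isoforms, had 12 genes in the fit, 9 higher and 3 lower, with a median difference of 1.07, and 6 rose. Slc25a31, the ADP/ATP carrier of male germ cells, read 113, 79.2 and 143 without OHT and 547, 556 and 646 with it, a difference of 2.42 ± 0.15 (adjusted p 0.00551). It had the largest difference of the 16 germ cell genes. Taf7l, a germ cell form of a subunit of the general transcription factor TFIID, read 189, 155 and 230.3 without OHT and 755, 675 and 718 with it, a difference of 1.92 ± 0.13 (adjusted p 0.00580). Rhox13, a reproductive homeobox gene on the X chromosome, read 109.8, 143 and 94.3 without OHT and 383, 506 and 463 with it, a difference of 1.98 ± 0.14 (adjusted p 0.00580). In all 3 genes the treated arrays lay close together and clear of the untreated ones. Figla, the oocyte factor that activates the egg coat genes, differed by 1.21 ± 0.15 (adjusted p 0.0353), Sohlh2, a transcription factor of early egg and sperm precursors, by 1.16 ± 0.13 (adjusted p 0.0274), and the TFIID subunit gene Taf9b by 1.05 ± 0.12 (adjusted p 0.0303; dim without OHT).

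Rhox9 (1.09 ± 0.15, adjusted p 0.0535), Rhox6 (1.03 ± 0.20, adjusted p 0.0987) and Rhox5 (0.75 ± 0.13, adjusted p 0.0777) of the same homeobox cluster did not pass. With no limit on intensity the median of this list was 0.31 over 26 measured members, since 14 dim members divided evenly into 7 higher and 7 lower. The corresponding median of the piRNA list was 1.08 over 20 members. Among genes in no list, 4 that also act in germ cells were called higher and were singled out after their values were seen: Gtf2a1l, a germ cell form of the factor TFIIA (1.15 ± 0.13), Catsperz, a part of the sperm calcium channel (1.12 ± 0.13), Gpat2, a testis acyltransferase (1.03 ± 0.12), and the helicase Ddx43 (0.92 ± 0.10). Gtf2a1l was dim without OHT, at 82.5, 72.8 and 83.4. It entered the fit only through the OHT+ arrays, so its call is no support.

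**Figure D3:**
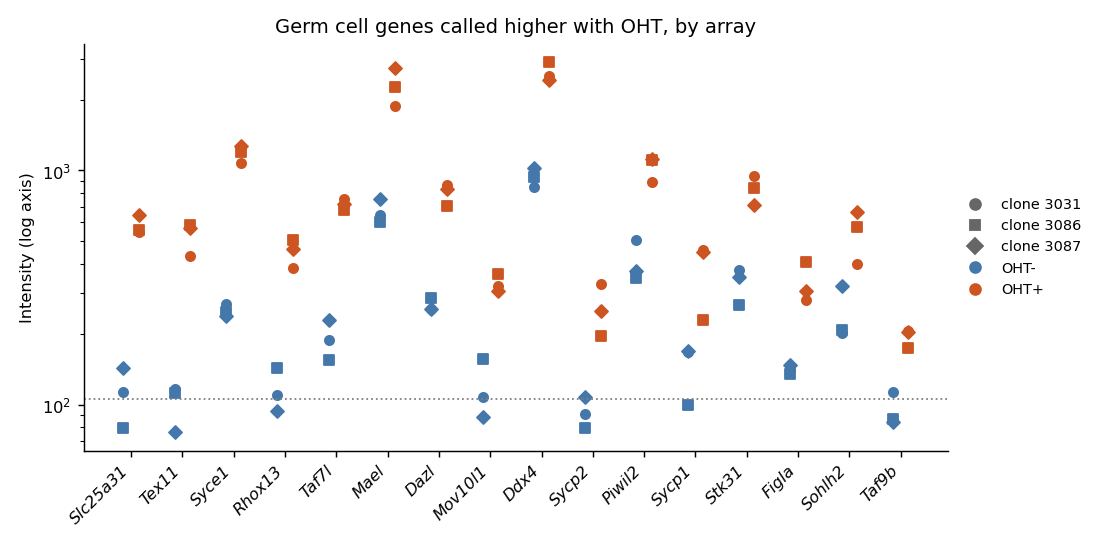
Intensity on a log axis of the 16 germ cell list genes called higher, on the 6 arrays; blue is OHT-, orange OHT+, the symbol gives the clone and the dotted line is the limit of 106. In each gene the 3 OHT+ arrays lie above the 3 OHT- arrays; Ddx4 and Mael are the brightest and Taf9b is among the dimmest.

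Because Mga and Max bind E-boxes, the promoters of these genes were read for the 6-base E-box CACGTG, which is the same on both strands, in RefSeq windows of 300 bases (assembly GRCm38.p6, from 250 bases before the start to 50 after it). A window was matched by symbol for 8896 of the 10922 genes. The E-box was in 12.3% of these. It was in 13 of 42 genes called higher that had a window (31.0%), in 8 of 14 germ cell genes called higher (57.1%), in 5 of 28 other genes called higher (17.9%), in 5 of 25 germ cell genes that were not called (20.0%) and in 2 of 8 genes called lower (25.0%). Counting only genes with a single window, the E-box was in 10.9% of all genes and in 6 of 12 germ cell genes called higher. These are counts of matches with no test, and a match is not a bound site.

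The parts of 5 of those promoters are shown because their genes carry the germ cell result and hold the match: 5′ to 3′ on the gene's strand, E-box in capitals, each ending at or before the base ahead of the annotated start and so outside that transcript. The E-box begins 93 bases before the start of Slc25a31 (plus strand), 94 before Sycp1 (minus strand), 49 before Taf7l (minus strand), 223 before Mael (minus strand) and 29 before Ddx4 (minus strand).
Slc25a31, chr3:40708738-40708837: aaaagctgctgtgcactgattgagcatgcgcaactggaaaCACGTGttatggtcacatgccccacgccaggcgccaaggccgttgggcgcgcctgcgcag
Sycp1, chr3:102936135-102936234: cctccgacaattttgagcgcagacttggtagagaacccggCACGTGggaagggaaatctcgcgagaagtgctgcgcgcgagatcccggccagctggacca
Taf7l, chrX:134476491-134476579: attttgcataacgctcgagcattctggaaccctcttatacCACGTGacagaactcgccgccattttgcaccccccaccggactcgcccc
Mael, chr1:166238895-166238994: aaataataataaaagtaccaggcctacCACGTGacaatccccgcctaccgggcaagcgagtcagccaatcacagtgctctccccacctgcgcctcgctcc
Ddx4, chr13:112652311-112652379: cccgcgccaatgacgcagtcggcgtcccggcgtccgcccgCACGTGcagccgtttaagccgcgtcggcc
The other germ cell genes with the match were Stk31, Mov10l1 and Taf9b. Mov10l1 has it 246 bases before its start, almost at the edge of the window. Syce1, Dazl, Rhox13, Figla, Sohlh2 and Sycp2 had a window and no match in it, and Tex11 and Piwil2 had no window in the table.

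The E2F sequence GCGGGAA, read on both strands, was in 10.3% of all genes with a window, in 6 of 42 genes called higher (14.3%), in 2 of 14 germ cell genes called higher (14.3%) and in 9 of 25 germ cell genes not called (36.0%). Ddx4 and Slc25a31 held it together with the E-box. The T-box sequence AGGTGTGA was in 0.955% of all genes and in 0 of 42 genes called higher, which says only that these letters are not in those windows. The ratio of observed to expected CpG was taken as the highest over a gene's windows. Its median over genes was 0.788 for germ cell genes called higher, 0.608 for other genes called higher, 0.941 for genes called lower and 0.805 for all genes. Counting only genes with a single window, it was 0.727, 0.577, 0.952 and 0.795 in that order.

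The largest differences belonged to genes of the 2-cell embryo, a stage whose programme a small share of ES cells switches on at any time. In this bulk RNA, more such cells and more RNA per cell cannot be told apart. AF067061 read 70.9, 11.9 and 38.6 without OHT and 902, 256 and 395 with it, a difference of 3.82 ± 0.21. Usp17la, a deubiquitinase, read 59.3, 55.3 and 54.3 without OHT and 976, 386 and 519 with it, a difference of 3.37 ± 0.23. In both genes the untreated arrays are below the limit, so they entered the fit only through the OHT+ arrays, and had to differ to be tested. Their adjusted p in the fit (0.00551 for AF067061 and 0.00580 for Usp17la) is therefore no support. With no limit on intensity limma gave both an adjusted p of 0.446. Their sizes are uncertain, and clone 3031 gave the brightest treated array. Usp17la has close copies in the genome, so its signal may include theirs. The other 5 members of the 2-cell list in the fit lay between -0.26 and 0.26, and the list's median was 0.19. A further 16 had a mean over the 6 arrays below the limit and were not tested, 9 of them higher and 7 lower. The largest difference among them was that of BC080696 (4.22), at 23.7 without OHT and 301 with it.

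Several families of this stage share probe sets among gene copies, so no single copy can be named from them. In a fit of the 21780 probe sets at or above the limit, 34 (0.156%) were called, among them 6 of 530 annotated to several genes. Apart from the Rybp pair these 6 were 4 probe sets of multicopy 2-cell families, all higher and singled out after their values were seen. The Zscan4 probe set 1457033_at, for genes that mark the 2-cell state, read 212, 124 and 136 without OHT and 3351, 1001 and 1677 with it, a difference of 3.54 ± 0.20 (adjusted p 0.0126). The probe set 1427479_at, annotated to Gm4027, BB287469 and Eif1a, read 103, 76.0 and 97.5 without OHT and 2006, 829 and 1319 with it, a difference of 3.83 ± 0.18 (adjusted p 0.00922). Its untreated arrays were all below the limit, so it entered that fit only through the OHT+ arrays and its adjusted p is no support. Probe set 1443961_at of the Gm4340 family gave 4.16 ± 0.19 and 1442334_at of the Gm13043 family 3.46 ± 0.14. The untreated arrays of 1442334_at read 120, 49.2 and 80.7, with a mean below the limit. It too entered the fit only through the OHT+ arrays, and its call is no support. In each of the 4, clone 3031 was brightest and clone 3086 dimmest with OHT.

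Few signalling genes were called. Bmp4, a ligand that holds mouse ES cells in self-renewal together with leukaemia inhibitory factor, read 148, 142 and 136 without OHT and 389.5, 405 and 352 with it, a difference of 1.43 ± 0.10 (adjusted p 0.00746). The spread within each condition was small beside that difference. It was the only called gene of 19 in the BMP list, whose median was -0.10. Among BMP target genes, Id3 (0.65 ± 0.12, adjusted p 0.0925), Id1 (-0.32 ± 0.13) and Id2 (-0.087 ± 0.16) did not pass and differed in sign. Inhbb, a subunit of activin and inhibin, differed by 0.86 ± 0.11 (adjusted p 0.0419; dim without OHT), the only called gene of 18 in the Nodal and activin list (median 0.02). Inhbb entered the fit only through the OHT+ arrays, so its adjusted p is no support. Of 21 FGF and ERK genes (median -0.04) and 19 Wnt genes (median 0.0055), 0 were called, which is near the share of 0.586% over all genes. In none of the lists, Adcy7, an enzyme that makes cyclic AMP, differed by 1.57 ± 0.14 (adjusted p 0.0115) and Zap70, the kinase behind the T cell receptor, by 1.34 ± 0.11 (adjusted p 0.00901).

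Crabp1, which binds retinoic acid in the cytoplasm, read 447, 529.9 and 704 without OHT and 1131, 1902 and 1855 with it, a difference of 1.53 ± 0.14 (adjusted p 0.0114). Clone 3031 had the lowest array in each condition, and the arrays of the conditions did not overlap. The retinoid list had 12 genes in the fit and a median of -0.02. Rbp4, the retinol carrier, was the gene just outside the threshold (0.75 ± 0.10, adjusted p 0.0504), and Col13a1, a membrane collagen, the gene just inside it (1.24 ± 0.17, adjusted p 0.0484). Without OHT Col13a1 read 167, 79.3 and 73.1, and the mean of their log2 values lies below the limit. Col13a1 entered the fit only through the OHT+ arrays, so its adjusted p is no support. Crabp2, the paralogue of Crabp1, was at -0.49 ± 0.11 and did not pass.

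Pluripotency genes were mostly higher, and 1 of 30 was called. Fbxo15, an F-box gene of undifferentiated ES cells, read 2173, 1904 and 2241 without OHT and 6393, 4668 and 5299 with it, a difference of 1.36 ± 0.12 (adjusted p 0.00909). It started from a bright signal and was higher by 1.56, 1.29 and 1.24 in the 3 clones. Of the 30 genes, 24 were higher and 6 lower, the median was 0.25, and 21 were higher in all 3 clones (70.0%, beside 18.2% of all genes). The naive-state factors Klf4 (0.90 ± 0.19, adjusted p 0.122), Tfcp2l1 (0.87 ± 0.19, adjusted p 0.125), Tcl1 (0.86 ± 0.16, adjusted p 0.0955) and Prdm14 (0.81 ± 0.16, adjusted p 0.102) had the largest differences after Fbxo15 and did not pass. Pou5f1 was at -0.18 ± 0.15 and Lin28a at -0.40 ± 0.11.

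Other genes that rose belong to several classes. Myh6, the heart's alpha myosin heavy chain, read 76.4, 70.0 and 73.3 without OHT and 267, 337 and 298 with it, a difference of 2.03 ± 0.13 (adjusted p 0.00551). Its untreated arrays were all dim, so it entered the fit only through the OHT+ arrays and its adjusted p is no support. The other Myh6 probe set, with a mean of 7.7 and so below the limit, gave 0.044. It differed by 0.69, -4.07 and 3.51 in clones 3031, 3086 and 3087. Myh6 was the only called gene of 14 in the cardiac and muscle list, whose median was -0.10. Its partners Myl4 (0.96 ± 0.21) and Tnni3 (-0.33 ± 0.15) did not pass. Cdkn1c, the imprinted inhibitor of cyclin-dependent kinases, read 631, 661 and 802 without OHT and 1314, 1679 and 1647 with it, a difference of 1.15 ± 0.12 (adjusted p 0.0201). It was the only called gene of the 32 cell cycle genes (median 0.02) and of the 23 imprinted genes (median 0.0093). Pygl, which breaks down glycogen in liver, differed by 1.53 ± 0.12 (adjusted p 0.00837), and among secreted factors Crispld2 by 1.94 ± 0.19 and the chemokine Cxcl14 by 1.73 ± 0.13, both dim without OHT. The other Cxcl14 probe set, also above the limit, gave only 0.44 and was lower with OHT in clone 3031 (-0.35). Kif26a, an atypical kinesin, differed by 1.78 ± 0.11, and the unnamed transcript gene AU015836 by 1.31 ± 0.11.

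In all, 24 called genes lie outside the rule that chose the genes named above and were singled out after their values were seen: Sohlh2, Taf9b, Col13a1 and the 4 germ cell genes in no list, all given above, and 17 more. Transport and metabolism are represented by Fabp5, a fatty acid carrier that was among the brightest called genes (2044, 2525 and 3303 without OHT, 4035, 5195 and 5981 with it, 0.96 ± 0.11), the amino acid transporter Slc7a2 (1.06 ± 0.10), the thiolase Acaa1b (0.97 ± 0.10), Hal, which degrades histidine (0.88 ± 0.11), and Ddah1, which degrades methylated arginines (1.17 ± 0.15). Calcium binding and nerve cell genes were S100a13 (1.16 ± 0.13), Hpca (1.00 ± 0.13; dim without OHT), Cbln1 (1.00 ± 0.13) and Shtn1 (0.97 ± 0.12). Genes of immune cells and chemokines were the decoy receptor Ackr3 (1.08 ± 0.12), the pore protein Gsdmd (0.83 ± 0.11; dim without OHT) and the transcription factor Irf8 (0.79 ± 0.10), the only gene called higher whose arrays overlapped between conditions. The remaining names were 8030474K03Rik (1.30 ± 0.16), Prxl2a (1.10 ± 0.12), Emilin3 (0.95 ± 0.11), Morc4 (0.84 ± 0.11) and Gm3336 (0.81 ± 0.11). Each of these was higher in all 3 clones.

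The 10 genes that fell were smaller in size than most that rose. Cnr1, the cannabinoid receptor of neurons, read 172, 182 and 173 without OHT and 98.7, 71.9 and 71.2 with it, a difference of -1.14 ± 0.14 (adjusted p 0.0353), and was dim with OHT. Its other probe set, with a mean of 58.2 and so below the limit, gave -0.028. Tuba1a, the alpha-tubulin of developing neurons, read 14621, 17585 and 15405 without OHT and 7726, 10480.0 and 8587 with it, a difference of -0.84 ± 0.11 (adjusted p 0.0392). Other alpha-tubulin genes are close in sequence and may add to this signal. Tuba1a was the brightest called gene and its OHT+ arrays were all below the OHT- arrays. Myb, a transcription factor of proliferating progenitors, read 1617, 1503 and 1785 without OHT and 992, 837 and 858 with it, a difference of -0.87 ± 0.12 (adjusted p 0.0464), with -0.83 and -1.07 from its other probe sets. Igf2bp3, an RNA-binding protein of fetal tissues, read 2372, 3033 and 2477 without OHT and 1319, 1759 and 1530.4 with it, a difference of -0.78 ± 0.11 (adjusted p 0.0465). Its 5 other probe sets, all above the limit, gave -0.47 to -0.88.

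Eno3, the muscle form of the glycolytic enzyme enolase, read 1011, 1307 and 1267 without OHT and 596, 717 and 725 with it, a difference of -0.81 ± 0.10 (adjusted p 0.0392). Has2, which makes hyaluronan, differed by -0.80 ± 0.10 (adjusted p 0.0419), and its other probe set gave -1.28. Thap2, a zinc-finger gene, differed by -1.003 ± 0.12, most in clone 3031 (-1.23), with -0.94 in 3086 and -0.83 in 3087. The transcript A930024E05Rik differed by -1.05 ± 0.11, Plekho1 by -0.87 ± 0.11 (dim with OHT) and Csn3, a milk casein, by -0.88 ± 0.11. Csn3 was the only gene called lower whose arrays overlapped: clone 3087 with OHT, at 284.1, lay above clone 3031 without it, at 274.0.

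Neural genes as a list were mostly lower: 15 of 19 in the fit, with a median of -0.42, and 10 lower in all 3 clones (52.6%, beside 20.5% of all genes). Cnr1 and Tuba1a were the members called. Sox1 (-1.09 ± 0.18, adjusted p 0.0766), which marks neural commitment, Pax6 (-0.68 ± 0.11, adjusted p 0.0671), Nnat (-0.68 ± 0.11, adjusted p 0.0688) and Nes (-0.63 ± 0.12, adjusted p 0.0955) did not pass. Without clone 3031 the list's median was -0.23. Genes of the primed epiblast, the stage after the naive one, were lower in 12 of 16 with a median of -0.24 and 0 called. Otx2 was at -0.78 ± 0.15 (adjusted p 0.0959) and Sox3 at -1.14 ± 0.30 (adjusted p 0.165).

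Genes of other cell types that the cultures could hold were looked at as well. Fibroblast markers, which feeder cells would bring, were higher in 17 of 21 with a median of 0.34, and 1 was called. That gene was Pdgfrb, a growth factor receptor of mesenchymal cells, which read 73.4, 101 and 61.4 without OHT and 169, 254 and 172 with it, a difference of 1.34 ± 0.11 (adjusted p 0.00898; dim without OHT). Pdgfrb entered the fit only through the OHT+ arrays, so its adjusted p is no support. The summed intensity of all 32 measured markers ran from 34266 to 42549 over the untreated arrays and from 35788 to 41769 over the treated ones, so the ranges overlapped; Fn1 was the brightest marker in that sum. Within the clones, 12 of the 21 were higher in all 3 (57.1%, beside 18.2% of all genes), and the list's median was 0.24, 0.28 and 0.40 in clones 3031, 3086 and 3087. The collagen genes Col1a1 (0.67 ± 0.17), Col5a1 (0.58 ± 0.13) and Col5a2 (0.60 ± 0.11) were higher without passing. The other 11 measured markers, among them Lum, Dcn, Fap, Col3a1, Prrx1 and Pdgfra, were below the limit and were not tested, 6 of them higher and 5 lower. The part of feeder cells in the results above was not tested. Primitive endoderm markers had a median of 0.0028 over 15 genes with 0 called, and Gata6 and Sox17 were below the limit. Trophectoderm markers had a median of 0.13 over 17 genes with Bmp4 as the member called, and Cdx2, Elf5 and Gata3 were below the limit.

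Of the 23 measured subunits of variant and canonical PRC1 in the fit (median -0.04), the 14 PRC1.6 subunits (median -0.0076), the 14 PRC2 subunits (median 0.12) and the 23 genes of DNA and H3K9 methylation (median -0.0080), 0 were called, which is near the share of 0.586% over all genes. Within PRC1.6, Mga (-0.044 ± 0.10), Pcgf6 (-0.034 ± 0.10), L3mbtl2 (-0.12 ± 0.10) and E2f6 (0.15 ± 0.12) lay near 0, and the largest, Cbx3, was at 0.36 ± 0.11. Max, at -0.022 ± 0.37, had too wide an error to place. The PRC1 members with the lowest p were Phc2 (0.63 ± 0.11, adjusted p 0.0792) and Bcor (0.61 ± 0.11, adjusted p 0.0897), and Bmi1 was at -0.59 ± 0.19. Developmental regulators bound by Polycomb in ES cells, such as Hox and Gata genes, could scarcely be read: 30 of 39 measured members were below the limit, and the 9 in the fit had a median of -0.28 with 0 called.

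Responses that a drug or a stress could bring were also counted. Oestrogen-responsive genes, chosen because OHT binds the oestrogen receptor, had a median of -0.05 over 16 genes, with Myb as the member called; Greb1 was at 0.012 ± 0.13. Of 23 targets of p53, 16 were higher, the median was 0.08 and 0 were called, with Cdkn1a at 0.31 ± 0.11 and Mdm2 at 0.16 ± 0.14. Stress and unfolded protein genes had a median of 0.05 over 26 genes with 0 called, and interferon-response genes a median of -0.06 over 15 with 0 called. Sterol and fatty acid synthesis genes were lower in 21 of 27 with a median of -0.12 and 0 called. Glycolysis and hypoxia genes had a median of 0.04 over 31 genes, with Pygl higher and Eno3 lower. The 16 control genes had a median of 0.02 and ranged from -0.28 to 0.37.

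**Figure D4:**
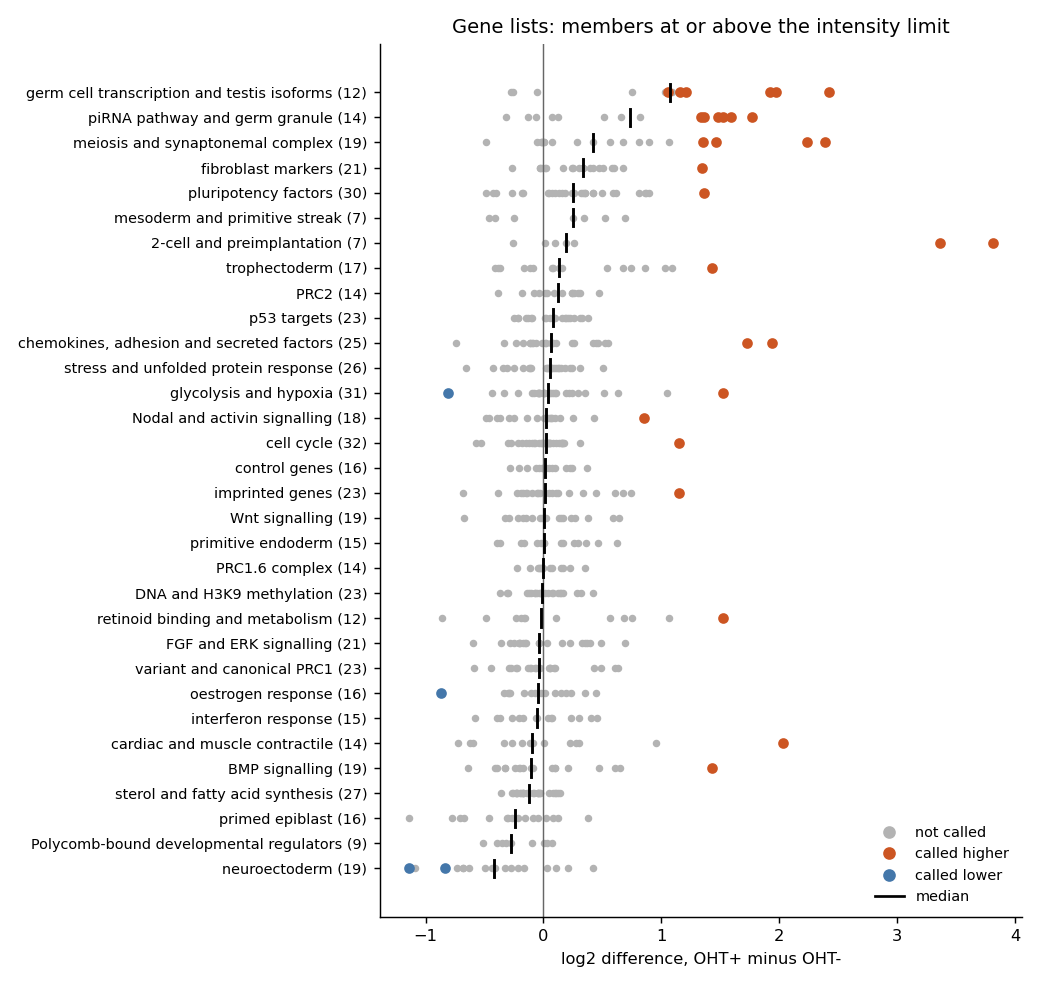
Differences (log2 intensity, OHT+ minus OHT-) of the genes in the fit for each of the 32 gene lists, ordered by median; grey points are not called, orange called higher, blue called lower, black bars the median, and the number in brackets the genes in the fit. The 3 germ cell lists have the highest medians (1.07, 0.74 and 0.42) and the neuroectoderm list the lowest (-0.42).

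The clones responded alike in size among the called genes, which were chosen for a difference shared by them. The genes called higher had median differences of 1.24, 1.34 and 1.25 in clones 3031, 3086 and 3087, and the genes called lower -0.83, -0.85 and -0.84. Over all genes in the fit the standard deviation of the differences was 0.30, 0.35 and 0.41 in that order, and 0.815%, 1.55% and 2.65% of genes moved at least 2-fold. The medians of the piRNA list were 0.62, 0.83 and 0.83. Those of the germ cell transcription list were 0.80, 1.31 and 1.04, and those of the meiosis list 0.13, 0.44 and 0.45. Whether the OHT effect differs with Yaf2 cannot be separated here from the single wild-type clone.

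**Figure D5:**
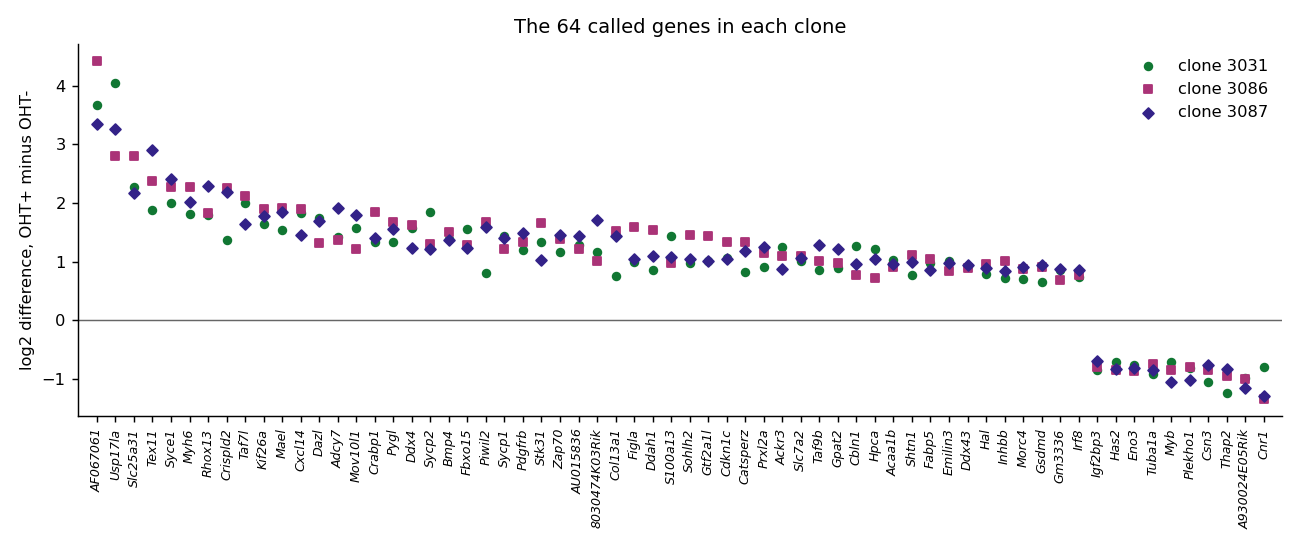
Difference (log2 intensity, OHT+ minus OHT-) of the 64 called genes within each of the 3 clones, ordered by the mean difference of the fit. All points of a gene lie on the same side of 0, and the spread between clones is widest for AF067061 and Usp17la.

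Leaving out a clone tested how far each call leaned on it. Of the 54 genes called higher, 23 were also called in all 3 fits that left out a clone and 8 in none of them. Of the 10 genes called lower, 0 were called in all 3 such fits and 6 in none. The 23 include Slc25a31, Tex11, Syce1, Taf7l, Mael, Dazl, Ddx4, Rhox13, Sycp1 and Mov10l1 of the germ cell genes, and Usp17la, AF067061, Myh6, Bmp4, Fbxo15 and Crabp1. These fits kept the genes chosen by the limit on all 6 arrays. Among the 23, Tex11, Usp17la, AF067061, Myh6, Cxcl14 and Pdgfrb were dim without OHT. They had therefore already been selected through their OHT+ arrays, and their repeated calls are no support. The 6 genes called lower that were called in none of these fits were Tuba1a, Myb, Igf2bp3, Eno3, Has2 and Plekho1. Other probe sets read another stretch of the same RNA in the same sample: 23 called genes had 38 of them, and 36 moved in the direction of the brightest, 25 of them in all 3 clones. Of the 18 below the limit, 16 moved that way and 8 did so in all 3 clones. Of the 20 at or above the limit, all 20 moved that way and 17 did so in all 3 clones. Those 20 belong to 12 genes, among them Dazl, Stk31, Ddah1, Fabp5, Has2, Igf2bp3 and Myb.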

How the data were processed

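Biotin-labelled cRNA from total RNA of 6 ES cell cultures was hybridised to Affymetrix mouse arrays, per the labels' protocols. The deposited values are probe set intensities; per the submitters' processing notes, Affymetrix Expression Console and RMA were used by the authors, in a role and version that the sources used here do not give. The values run from 0.140 to 45795 with a median of 102 and were taken as linear intensity. The table has 45101 probe sets, although the array is called 430A 2.0 in the series text. Its annotation gives 34958 with 1 symbol, 932 with several and 9211 with none, and 99.4% of the first kind matched RefSeq gene identifiers. No detection calls were used here, and precision is limited by the number of arrays.

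The log2 intensity of each gene was modelled in limma 3.58.1 (lmFit, eBayes; R 4.3.3), with clone and OHT as terms (2 residual degrees of freedom), Benjamini-Hochberg adjustment over 10922 genes and a threshold of 0.05. Pairing comes from the clone numbers in the labels. The deviations of the 2 arrays of a clone from their group means correlated at 0.43 (clone 3031), 0.043 (3086) and 0.30 (3087).

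The text names Rybp, Yaf2 and the cell type markers. It names the 15 largest called rises, then the next 10 whose mean is above the limit in both conditions, and all 10 called falls. Of each of the 32 gene lists it names up to 4 called members and the 2 of lowest p that were not called. Other list members and 24 called genes are named as examples or because they passed. The comparison, gene lists and members were chosen with earlier results of these data known. Gene lists come from general knowledge of these classes; 820 of 895 entries were measured. Alternatives changed the block, the intensity limit, the variance model, the handling of dim values, the choice of probe sets and the clones or arrays used.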

Additional observations from a re-analysis of the deposited data

How the results depend on the processing

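Pairing by clone affects how many genes pass: with no replicate block (Yaf2 status and OHT as terms) limma called 38 genes, 37 of them among the 64, and 2 in place of 10 lower. With no limit on intensity it called 0 genes, 0 of them higher, lower or in the germ cell lists. A stricter limit of 212 gave 139 genes (91 higher, 48 lower), an intensity trend 350 (202 higher, 148 lower), 50 added to every intensity 154 (111 higher, 43 lower), and the mean of all probe sets of a gene 20 (20 higher, 0 lower). Of the 64 genes, 39, 60, 64 and 19 were called in these fits in that order. The 39 are all of the 64 whose mean reaches 212, and the rest were not in that stricter fit. The cause of the other differences was not tested. Leaving out a clone gave 27 to 80 genes (25 to 71 higher, 2 to 9 lower, 10 to 20 of the germ cell lists), with the lowest without clone 3086. Leaving out an array in the fit without the block gave 1 to 22 genes (1 to 22 higher, 0 lower, 1 to 10 of the germ cell lists), with the lowest without the OHT+ array of clone 3087. With an intensity trend the adjusted p of both Rybp probe sets was 5.35e-05 in place of 0.608. Yaf2, at 0.054, ranged from -0.052 to 0.124 when a clone or array was left out, with -0.032 without clone 3087 and -0.052 in the fit without the block that left out the OHT- array of that clone. No other named gene changed sign: over the alternatives 1539 results kept their side of the threshold, 299 lost it and 82 gained it. Of the list medians under an alternative, 139 moved by less than the spread between clones and 21 by more. The 7271 genes below the limit were not tested in the comparison of 10922. Since the limit is on the mean of both conditions, some of them are above it with OHT, such as BC080696 (23.7 without OHT and 301 with it, higher in all 3 clones).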

Other observations

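Of the 34 probe sets called in the fit of single probe sets, 2 of the 2075 annotated to no gene fell with OHT. Probe set 1448136_at read 319, 369 and 508 without OHT and 80.5, 121 and 169 with it in clones 3031, 3086 and 3087, a difference of -1.73 ± 0.13 (log2 ± SE of limma, adjusted p 0.0229). Probe set 1458382_a_at read 1648, 1368 and 1159 without OHT and 727, 643 and 447 with it, a difference of -1.22 ± 0.12 (adjusted p 0.0479). In both the arrays of the conditions did not overlap. They were the only probe sets called lower in that fit besides the Rybp probe set 1421111_at, and their genes are not named here.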
